A study of Mus musculus with 8 samples.

Results

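The expression of 10 genes listed as negative regulators of signalling from the T cell receptor was followed in thymocytes of 2 mouse strains. The 10 genes were taken by name: the phosphatase genes Ptprc, Ptpn22, Ptpn6 and Ubash3a, the kinase gene Csk, the ubiquitin ligase genes Cbl and Cblb, the adaptor gene Sla and the diacylglycerol kinase genes Dgka and Dgkz. All 10 were among the 23420 gene symbols counted, and all 10 passed the filter on low counts that left 11409 genes for testing. Total RNA was sequenced from wild-type B6 and BALB mice in 4 groups of 2 libraries: sorted B6 DP thymocytes, B6 whole thymocytes, sorted BALB DP thymocytes and BALB whole thymocytes, all untreated as far as the labels say. DP (double-positive) thymocytes display CD4 together with CD8; those sorted lacked CD69 and bound the receptor beta chain antibody H57 weakly to moderately. Whole thymocytes add immature precursors, mature single-positive cells and whatever non-thymocytes the suspension held. The labels give no substrain, age or sex and do not say whether replicates came from separate animals, so p-values measure the spread between libraries. That spread may be technical, except in the BALB whole pair, whose counts of sex-linked genes differ.

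The T cell receptor has no enzyme of its own and depends on the kinase Lck, which phosphorylates the CD3 chains and then Zap70, whose targets recruit phospholipase C gamma and release diacylglycerol. The genes described here act at successive points of that chain. Csk phosphorylates the inhibitory tyrosine of Lck. The receptor phosphatase CD45, encoded by Ptprc, removes that phosphate, which opposes Csk, and can also remove the activating one, so it is not only a restraint. Ptpn22 and Ptpn6 (SHP-1) dephosphorylate the kinases, Cbl proteins attach ubiquitin to active signalling proteins, and diacylglycerol kinases consume the second messenger. In DP thymocytes of mice, the adaptor SLAP, encoded by Sla, and the ligase c-Cbl, encoded by Cbl, are known to keep the amount of receptor on the surface low.

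The libraries held 2632083 to 5974684 counts in genes, and the 10 genes had between 152 and 9281 counts per library. The sorted groups matched their label: the summed level of 10 DP marker genes was 12674 to 19929 CPM (counts scaled to library size) in DP libraries and 8814 to 12181 CPM in whole thymocytes, and the summed level of 13 mature thymocyte markers was 260 to 329 CPM in DP libraries and 897 to 1023 CPM in whole thymocytes. Of the mature markers, S1pr1 had no counts in B6 DP and Zbtb7b none in BALB DP. BALB DP replicate 1 stood apart, where Rn45s, a gene for precursor ribosomal RNA, took 3.14% of counts against 5.11% to 8.35% elsewhere, and the BALB DP pair differed most between replicates. BALB whole thymocyte replicate 1 had 12313 counts of Xist and no counts of 4 Y-linked genes, unlike the other 7 libraries. Of those, BALB whole replicate 2 had 203 counts of Xist and 34 of the Y-linked gene Eif2s3y. The B6 and BALB DP libraries had 6 to 24 of Xist and 180 to 480 of Eif2s3y. By these counts BALB whole replicate 1 was female, while replicate 2 held Y-linked transcripts, with 725 counts of Ddx3y. These 2 libraries were thus not from the same animal, and sex differed within BALB whole thymocytes. The part of sex in the differences given here was not tested. Results were also computed without BALB DP replicate 1 and BALB whole replicate 1, called here the libraries that stood apart.

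Levels of the 10 genes differed widely from one another. Per kilobase of exon, and averaged over the 8 libraries, Ptprc was highest at 332 CPM per kb, followed by Dgka at 210.3, Sla at 176 and Dgkz at 158. Ptpn6 at 102, Cbl at 94.8, Csk at 56.3 and Ptpn22 at 44.8 CPM per kb lay between, and the lowest were Ubash3a at 12.7 and Cblb at 11.5, so the range over the 10 genes was 28.8-fold. Their span across conditions was much narrower: the highest group mean exceeded the lowest by 1.87-fold for Ptpn22, 1.66-fold for Cblb, 1.55-fold for Ptpn6, 1.48-fold for Cbl and 1.45-fold for Sla, and by 1.12-fold to 1.27-fold for Ubash3a, Ptprc, Csk, Dgkz and Dgka. The summed level of all 10 was 5971 ± 126 CPM (SD, n = 2, as for all CPM means here) in B6 DP, 5122 ± 65.9 in B6 whole, 5300.1 ± 284 in BALB DP and 5428 ± 55.4 in BALB whole thymocytes.

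**Figure D1:**
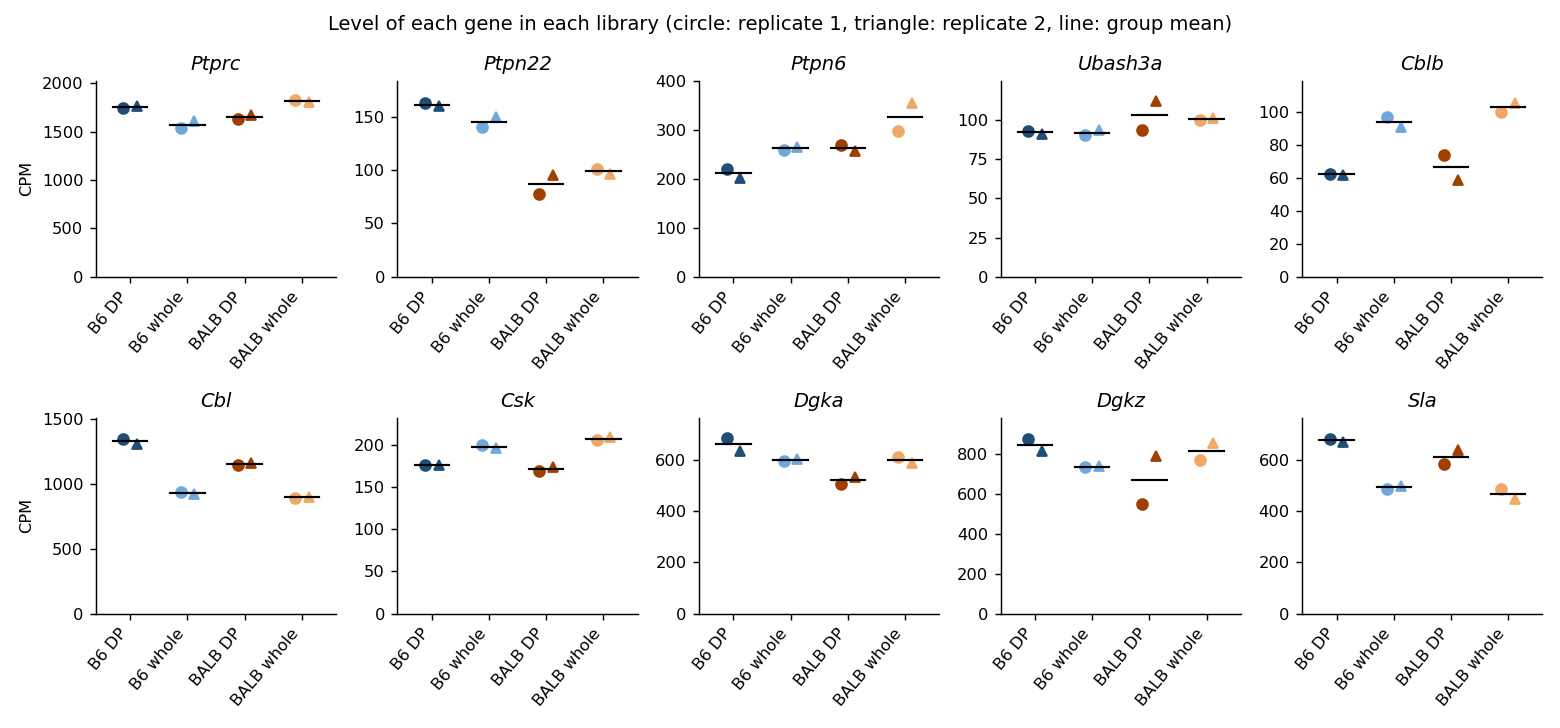
Level in CPM of each of the 10 genes (vertical axis, from 0) in each library of the 4 groups (horizontal axis); circles are replicate 1, triangles replicate 2 and lines group means. Ptpn22 is lower in all 4 BALB libraries than in all 4 B6 libraries, Cbl and Sla are lower and Cblb higher in whole than in DP thymocytes of either strain, and the BALB DP replicates are far apart for Dgkz.

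Ptpn22 was lower in BALB than in B6 in both populations, and Cbl and Sla were lower while Cblb was higher in whole than in DP thymocytes of both strains. In bulk RNA, fewer cells of a type and less RNA per cell cannot be told apart. In the comparison of BALB with B6 DP thymocytes, 2 of the 10 genes were called lower (Ptpn22 and Dgka) and none higher, where called means a Benjamini-Hochberg adjusted p under 0.05 in edgeR's quasi-likelihood test over all genes; of all genes tested 13.0% were called, 6.85% higher and 6.14% lower. For whole thymocytes of the same strains, 1 was called, Ptpn22, against 4.59% of all genes, 1.98% higher and 2.61% lower. Between whole and DP thymocytes of B6, 3 were called, Cblb higher and Cbl and Sla lower, against 10.2% of all genes, 6.89% higher and 3.27% lower. The same 3 genes were called in the same directions in BALB, against 17.2% of all genes, 10.6% higher and 6.59% lower. With 10 genes, single calls move these shares by much, and no test was made of the group as such.

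Every comparison, also those between 2 groups, took its estimate of the spread from all 8 libraries. The p-values of comparisons between 2 groups therefore rest in part on libraries outside them, and replicate spread differed between groups. Averaging over the other factor drew the fold change from all 8 libraries as well. The strain difference averaged over both populations was called for Ptpn22 (lower in BALB) and Ptpn6 (higher), 2 of 10 against 13.9% of all genes, 6.59% higher and 7.32% lower. The population difference averaged over both strains was called for 5 of 10, with Cblb, Ptpn6 and Csk higher and Cbl and Sla lower in whole thymocytes, against 23.9% of all genes, 14.1% higher and 9.76% lower. The interaction asks whether the strain difference depends on the population. It was called for 0 of 10 genes by edgeR, by DESeq2 and by limma-voom, against 0.123% of all genes by edgeR. In edgeR's test, 3 of the 10, Ptprc, Dgka and Dgkz, had an unadjusted p under 0.05, as had 1243 of all 11409 genes tested.

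For the pair with the smallest p in the test of any difference among the 4 groups, Ptpn22 and Cbl, the reference bases before the RefSeq start are shown to place these genes in the genome; no value here links these bases to a difference in level. Of the 10 genes, 9 had an entry in the RefSeq promoter table of GRCm38.p6. The 250 bases of Ptpn22, before the first of its 2 RefSeq starts (chr3:103859545-103859794, plus strand) and of Cbl (chr9:44234047-44234296, minus strand) are given 5′ to 3′ from the reference assembly, which is of C57BL/6J, with matches to the searched motifs in capitals.
Ptpn22: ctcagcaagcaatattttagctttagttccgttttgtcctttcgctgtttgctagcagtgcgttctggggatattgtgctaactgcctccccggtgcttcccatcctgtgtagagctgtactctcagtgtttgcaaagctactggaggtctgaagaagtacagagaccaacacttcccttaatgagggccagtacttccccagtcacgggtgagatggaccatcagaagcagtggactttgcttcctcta
Cbl: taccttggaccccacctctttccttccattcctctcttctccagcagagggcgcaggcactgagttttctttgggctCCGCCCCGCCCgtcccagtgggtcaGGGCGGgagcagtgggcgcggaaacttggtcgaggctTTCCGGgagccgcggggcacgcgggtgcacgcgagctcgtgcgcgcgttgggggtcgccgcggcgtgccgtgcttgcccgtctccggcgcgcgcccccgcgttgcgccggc
Motifs were searched on both strands: the E-box CANNTG, the ETS core CCGGAA, the RUNX core TGTGGT, the GC box GGGCGG and the TATA box TATAAA, held by 66.2%, 12.02%, 14.0%, 32.7% and 12.4% of the 32817 promoter windows in the table. The Cbl window held 3 GC boxes, 2 of them overlapping, and 1 ETS core, with 71.6% G or C and 33 CpG dinucleotides, against medians of 52.4% and 6 over all windows. None of the 5 motifs was found in the Ptpn22 window shown, which had 49.2% G or C and 5 CpG dinucleotides. The window before its other RefSeq start (chr3:103860027-103860276) held 2 RUNX cores and 1 E-box, with 46% G or C and 2 CpG dinucleotides. These matches describe the letters and are not binding sites, and the windows carry no information on the sequence of BALB mice.

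Ptpn22 (chromosome 3, 103859795 to 103912247 in mm10), a phosphatase that acts on the active forms of Lck and Zap70, had the smallest p of the 10 for strain. Its level was 163 and 160.2 CPM in the B6 DP libraries, 140.0 and 149.7 CPM in B6 whole, 78.0 and 95.1 CPM in BALB DP, and 101.4 and 96.4 CPM in BALB whole thymocytes. Every BALB library lay below every B6 library. Relative to B6, BALB was lower by a log2 fold change of −0.91 ± 0.12 (SE) in DP thymocytes (adjusted p = 0.000558) and −0.55 ± 0.12 in whole thymocytes (adjusted p = 0.0198), which correspond to 0.532-fold (95% interval 0.443 to 0.639) and 0.683-fold (0.570 to 0.818). Averaged over both populations the change was −0.73 ± 0.085 (adjusted p = 0.000118), and that p ranked 208 of 11409. The call in DP thymocytes and that of the average held when each of the 8 libraries was left out in turn. The call in whole thymocytes was lost without B6 DP replicate 1 or without any 1 of the 4 whole thymocyte libraries, with the log2 fold change at −0.60 to −0.50 over the 8 omissions and adjusted p of up to 0.253. The population change did not pass in either strain, at −0.16 ± 0.12 in B6 and 0.21 ± 0.12 in BALB. The strains differed in other genes too. The 10 DP markers summed to 19163 to 19929 CPM in B6 DP and 12674 to 12815 CPM in BALB DP. In whole thymocytes they summed to 11635 to 12181 CPM in B6 and 8814 to 9340 CPM in BALB. In DP and in whole thymocytes alike, 5 of the 10 were called lower in BALB, against 6.14% and 2.61% of all genes. The part of this in the strain differences was not tested.

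Genes beside Ptpn22 on the chromosome were looked at after its values were seen. Of 8 tested genes within 500 kb, 1 was called in DP and 1 in whole thymocytes, against 13.0% and 4.59% of all genes. In both cases it was the scaffold protein gene Magi3, lower in BALB at −0.65 ± 0.096 and −0.65 ± 0.098 (adjusted p = 0.00124 and 0.00194 in edgeR's test). Averaged over both populations 2 were called, against 13.9% of all genes. These were Magi3, lower in BALB, and Hipk1, higher at 0.20 ± 0.060 (adjusted p = 0.0456 in edgeR's test). The immediate neighbours Ap4b1 and Rsbn1 were at −0.34 ± 0.18 and 0.21 ± 0.13 in DP thymocytes and did not pass. Over the 8 libraries, the genes whose centred log2 CPM lay nearest to that of Ptpn22 were Mtfr1l (Euclidean distance 0.108), AI467606 (0.204) and Ppox (0.218), against a median distance of 1.33 over all tested genes. All 3 were likewise lower in BALB, with log2 fold changes of −0.92, −0.91 and −0.86 in DP thymocytes, as their selection by likeness requires.

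**Figure D2:**
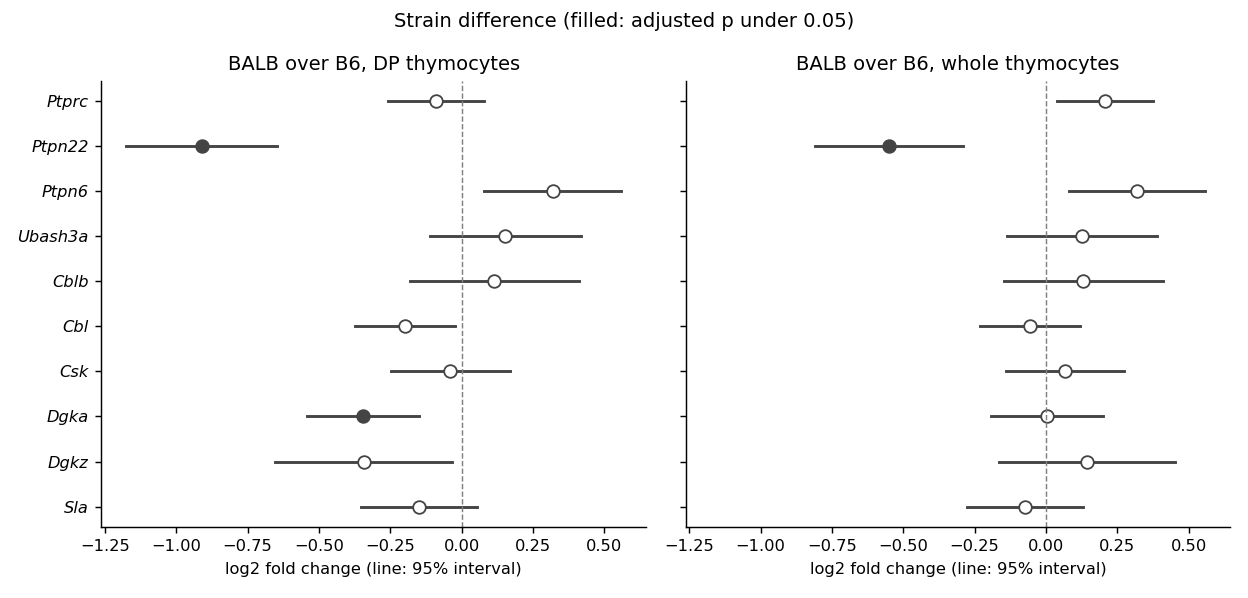
Log2 fold change of BALB over B6 (horizontal axis) for each of the 10 genes in DP thymocytes (left) and whole thymocytes (right); points are estimates, lines 95% intervals, and filled points passed an adjusted p of 0.05. Ptpn22 is the one gene filled in both panels, and Dgka is filled in DP thymocytes only, where its estimate is −0.34 against 0.00 in whole thymocytes.

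Ptpn6, the gene of SHP-1, a phosphatase recruited by inhibitory receptors, was higher in BALB and in whole thymocytes when averaged over the other factor. It was at 221 and 202 CPM in B6 DP, 260.5 and 265 CPM in B6 whole, 269.8 and 258 CPM in BALB DP, and 299 and 357 CPM in BALB whole libraries. B6 DP was lowest and BALB whole highest, and the 2 middle groups overlapped. No single comparison passed: the strain log2 fold change was 0.32 ± 0.11 in DP thymocytes (adjusted p = 0.0776) and 0.32 ± 0.11 in whole thymocytes (0.159), and the population change was 0.31 ± 0.11 in B6 (0.0996) and 0.31 ± 0.11 in BALB (0.0712), all by edgeR's test. Averages over the other factor passed, at 0.32 ± 0.077 for strain (adjusted p = 0.0177) and 0.31 ± 0.077 for population (adjusted p = 0.0123). Both averaged calls were lost without B6 DP replicate 2, B6 whole replicate 1 or 2, or BALB whole replicate 2, with adjusted p of up to 0.113 and 0.0698. Ptpn6 shares 195 bases of exon, 7.48% of its length, with the opposite-strand gene Gm20531, and the kit does not keep the strand, so reads of both cannot be told apart there.

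Ptpn6 is also abundant in blood cells other than T cells, and their transcripts moved with the population comparison. The summed level of 15 myeloid and dendritic cell markers was 51.5 to 68.3 CPM in the 4 DP libraries and 317 to 341 CPM in the 4 whole thymocyte libraries; Sfpi1 (Spi1) had no counts in either DP group, Itgax none in B6 DP and Emr1 (Adgre1) none in BALB DP. For 9 B cell markers the sums were 4.66 to 12.8 and 22.7 to 37.0 CPM, with Pax5 and Blk at 0 in BALB DP. The 10 thymic epithelial markers summed to 9.32 to 11.2 CPM in DP and 43.2 to 114 CPM in whole thymocytes, with 3 and 4 of them at 0 in B6 and BALB DP, and 10 DN precursor markers to 110.2 to 138 and 247 to 299 CPM, with Hhex at 0 in all groups. Il7r is in both the DN and the mature list. Endothelial and mesenchymal markers (7 genes) summed to 123 to 162 and 135 to 169 CPM, with Kdr, Col3a1 and Pdgfra at 0 in both DP groups. Pecam1 of that list, also among the inhibitory receptors below, changed by −0.01 ± 0.13 in B6 and 0.13 ± 0.13 in BALB whole thymocytes and did not pass. The 6 erythroid markers summed to 5.82 to 9.10 and 18.4 to 33.7 CPM, with Hba-a1 and Hba-a2 at 0 in all groups. The part of these cells, and of mature thymocytes, in the population differences given here was not tested.

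Ptprc (chromosome 1, 138062861 to 138175708), the gene of the receptor phosphatase CD45, was the most abundant of the 10. Its level was 1747 and 1763 CPM in B6 DP, 1534 and 1610 CPM in B6 whole, 1626 and 1674 CPM in BALB DP, and 1824 and 1805 CPM in BALB whole libraries. The 4 groups did not overlap, but they lay close together. Neither strain comparison passed, at −0.09 ± 0.077 in DP (adjusted p = 0.487) and 0.21 ± 0.077 in whole thymocytes (0.211). The population change was −0.16 ± 0.077 in B6 and 0.14 ± 0.077 in BALB, and the difference between those, 0.30 ± 0.11, had an unadjusted p of 0.0194 and an adjusted p of 0.365 in edgeR's test.

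Ubash3a, which encodes a ubiquitin-binding protein of the STS family with weak phosphatase activity, had the narrowest span of group means. It was at 92.9 and 90.9 CPM in B6 DP, 90.5 and 93.1 CPM in B6 whole, 93.6 and 112 CPM in BALB DP, and 99.5 and 101 CPM in BALB whole libraries. The population fold was 0.999 (95% interval 0.832 to 1.1999) in B6 and 0.980 (0.817 to 1.18) in BALB. Strain folds were 1.11 (0.926 to 1.34) in DP and 1.09 (0.910 to 1.31) in whole thymocytes, so changes within these bounds are not excluded with 2 libraries per group. Its close relative Ubash3b, the gene of STS-1, rose from 0.699 ± 0.343 to 7.88 ± 0.879 CPM in B6 whole thymocytes and from 0.457 ± 0.0971 to 12.8 ± 0.742 CPM in BALB, by log2 fold changes of 3.51 ± 0.45 and 4.64 ± 0.44 (adjusted p = 0.000638 and 3.95e-05 in edgeR's test).

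Csk (chromosome 9, 57626646 to 57653631), the kinase that holds Lck inactive, was slightly higher in whole thymocytes. Its level was 176 and 176 CPM in B6 DP, 199 and 196 CPM in B6 whole, 169 and 174 CPM in BALB DP, and 205 and 209 CPM in BALB whole libraries. All 4 whole thymocyte libraries lay above all 4 DP libraries. Each strain alone did not pass, at 0.17 ± 0.095 in B6 (adjusted p = 0.314) and 0.27 ± 0.095 in BALB (0.0695), and the average over strains did, at 0.22 ± 0.067 (adjusted p = 0.0327). That call held in 2 of the 8 omissions, those of the BALB DP libraries, and was lost in the DESeq2 Wald test and without the filter. The strain difference was −0.04 ± 0.096 in DP and 0.07 ± 0.094 in whole thymocytes. Pag1, which encodes the membrane adaptor that brings Csk to Lck, was lower in BALB, at 302 ± 27.8 against 530 ± 6.63 CPM in DP (−0.81 ± 0.10, adjusted p = 0.000340) and 293 ± 20.4 against 402 ± 8.04 CPM in whole thymocytes (−0.45 ± 0.10, adjusted p = 0.0233).

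Cbl (chromosome 9, 44142976 to 44234049), the gene of the ligase c-Cbl, fell in whole thymocytes. Its level was 1351 and 1305 CPM in B6 DP, 939 and 924 CPM in B6 whole, 1149 and 1166 CPM in BALB DP, and 889.95 and 903 CPM in BALB whole libraries. Both DP groups lay above both whole thymocyte groups. The population change was −0.51 ± 0.081 in B6 (adjusted p = 0.00216) and −0.37 ± 0.081 in BALB (adjusted p = 0.00861), or 0.702-fold (95% interval 0.621 to 0.793) and 0.774-fold (0.685 to 0.875). In B6 the call held in all 8 omissions. In BALB it was lost without BALB whole replicate 1 (adjusted p = 0.0560) and in the fit of only the 4 BALB libraries (0.121). The strain change in DP thymocytes, −0.20 ± 0.081, did not pass (adjusted p = 0.128 in edgeR's test).

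The profile of Cbl over the 8 libraries was nearest to those of Dck (Euclidean distance of centred log2 CPM 0.0843), the gene of deoxycytidine kinase, and of the coreceptor genes Cd8a (0.114) and Cd8b1 (0.116), against a median of 0.973 over all tested genes. Dck, Cd8a and Cd8b1 changed by −0.46, −0.53 and −0.49 in B6 whole thymocytes and by −0.42, −0.36 and −0.36 in BALB. The changes of Cbl were −0.51 and −0.37, a likeness that the selection of these genes requires.

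Cblb (chromosome 16, 52031225 to 52208048), the gene of the related ligase Cbl-b, moved the opposite way. It was at 62.5 and 61.7 CPM in B6 DP, 97.0 and 90.7 CPM in B6 whole, 73.9 and 59.0 CPM in BALB DP, and 99.98 and 106 CPM in BALB whole libraries. Every whole thymocyte library lay above every DP library. The change was 0.60 ± 0.13 in B6 (adjusted p = 0.0141) and 0.61 ± 0.13 in BALB (adjusted p = 0.00764), 1.51-fold (95% interval 1.24 to 1.85) and 1.53-fold (1.25 to 1.86), and the interaction was 0.02 ± 0.19. The B6 call was lost when any 1 of the 4 B6 libraries was left out (adjusted p of up to 0.154), and the BALB call was lost without BALB whole replicate 2 (0.0605). Strain differences were 0.12 ± 0.13 in DP and 0.13 ± 0.13 in whole thymocytes and did not pass.

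The ratio of Cbl to Cblb counts per kilobase of exon was 13.3 ± 0.206 in B6 DP and 6.17 ± 0.221 in B6 whole thymocytes, and 10.95 ± 1.85 in BALB DP and 5.41 ± 0.154 in BALB whole thymocytes. In single libraries it ran from 9.65 to 13.4 in the 4 DP libraries and from 5.31 to 6.32 in the 4 whole thymocyte libraries, without overlap; the ratio was formed after the values were seen and was not tested. Both ligase genes together summed to 1390.3 ± 32.8 CPM in B6 DP, 1026 ± 15.2 in B6 whole, 1224 ± 1.03 in BALB DP and 999 ± 13.2 in BALB whole thymocytes, most of it from Cbl.

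**Figure D3:**
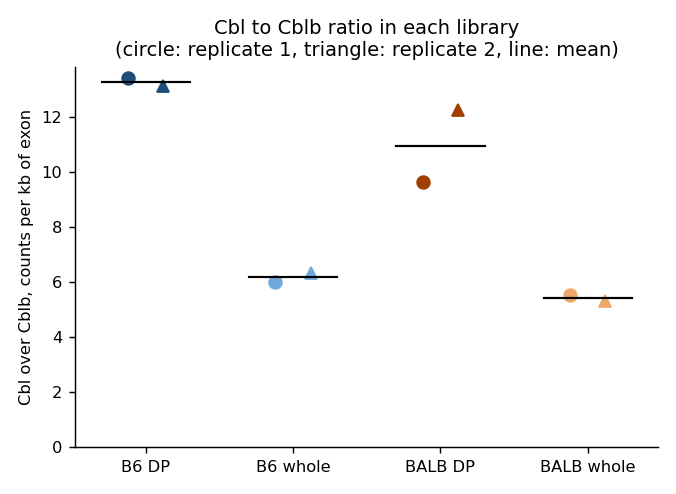
Ratio of Cbl to Cblb in counts per kilobase of exon (vertical axis, from 0) in each library of the 4 groups (horizontal axis); circles are replicate 1, triangles replicate 2 and lines group means. The 4 DP libraries lie between 9.65 and 13.4 and the 4 whole thymocyte libraries between 5.31 and 6.32.

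Sla (chromosome 15, 66780819 to 66831829), the gene of the adaptor SLAP, which works with c-Cbl, fell in whole thymocytes together with Cbl. Its level was 685 and 673 CPM in B6 DP, 487 and 499 CPM in B6 whole, 585 and 641 CPM in BALB DP, and 487 and 450.1 CPM in BALB whole libraries. Both DP groups lay above both whole thymocyte groups, as for Cbl. The change was −0.46 ± 0.093 in B6 (adjusted p = 0.00884) and −0.39 ± 0.093 in BALB (adjusted p = 0.0142), or 0.727-fold (95% interval 0.631 to 0.837) and 0.765-fold (0.664 to 0.880). The B6 call was lost when any 1 of the 4 B6 libraries was left out (adjusted p of up to 0.113), and the BALB call without BALB whole replicate 2 (0.105) and in the fit of only the 4 BALB libraries (0.127). Averaged over strains, the calls of Cbl (−0.44 ± 0.057), Cblb (0.60 ± 0.093) and Sla (−0.42 ± 0.066) held in all 8 omissions. The strain changes of Sla, −0.15 ± 0.093 in DP and −0.07 ± 0.093 in whole thymocytes, did not pass. Sla lies within the opposite-strand gene Tg but shares no exon bases with another gene in the annotation used.

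**Figure D4:**
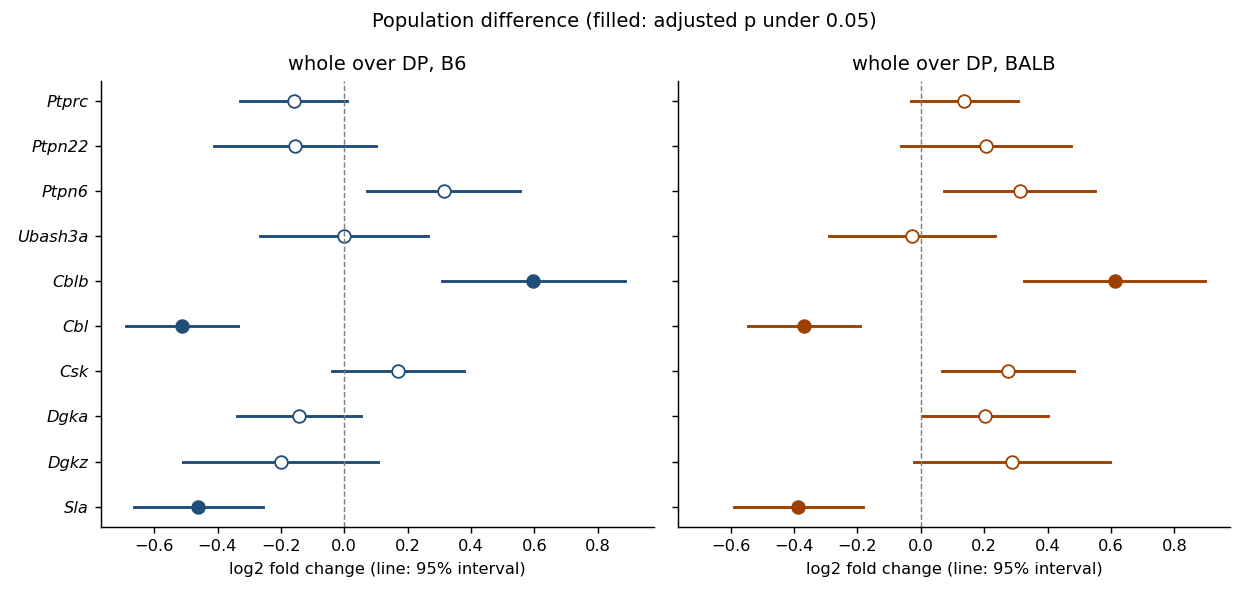
Log2 fold change of whole over DP thymocytes (horizontal axis) for each of the 10 genes in B6 (left) and BALB (right); points are estimates, lines 95% intervals, and filled points passed an adjusted p of 0.05. Cblb is filled to the right of 0 and Cbl and Sla to the left of 0 in both strains, at 0.60, −0.51 and −0.46 in B6.

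Of the diacylglycerol kinase genes, Dgka was lower in BALB than in B6 DP thymocytes, and Dgkz did not pass. Dgka (chromosome 10, 128720134 to 128744855) was at 688 and 637 CPM in B6 DP, 595 and 603 CPM in B6 whole, 509 and 535 CPM in BALB DP, and 612 and 588 CPM in BALB whole libraries. BALB DP lay below the other groups and B6 DP above them, while the whole thymocyte groups overlapped. The strain change was −0.34 ± 0.090 in DP thymocytes (adjusted p = 0.0274) and 0.00 ± 0.090 in whole thymocytes, and the difference between these, 0.35 ± 0.13, did not pass (adjusted p = 0.363 in edgeR's test). The call was lost when any 1 of the 4 B6 libraries was left out (adjusted p of up to 0.218), in the DESeq2 Wald test and in the fit of only the 4 DP libraries (up to 0.124). Dgka shares 105 bases of exon, 3.71% of its length, with the opposite-strand gene Pmel.

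Dgkz (chromosome 2, 91932824 to 91975864), the gene of the zeta enzyme, was at 874 and 813 CPM in B6 DP, 732 and 736 CPM in B6 whole, 546 and 787 CPM in BALB DP, and 771 and 852 CPM in BALB whole libraries. The low value belonged to BALB DP replicate 1, the library that stood apart. The strain change in DP thymocytes was −0.34 ± 0.14 (adjusted p = 0.134) and in whole thymocytes 0.14 ± 0.14 (0.767), and neither passed in edgeR's test. Its value rested on which BALB DP library was kept: the DP strain change was −0.10 without replicate 1 (adjusted p = 0.536) and −0.61 without replicate 2 (adjusted p = 3.59e-05). Without BALB DP replicate 2, the interaction was called for 4 of the 10 genes, Ptprc, Ptpn22, Dgka and Dgkz (adjusted p = 0.0354, 0.0370, 0.0387 and 0.000236 in edgeR's test), and without replicate 1 for none. The replicate 1 left in the first case is the library that stood apart, and calls over all genes then rose from 14 to 1311, so the added calls were not limited to these 4 genes. Of their paralogs, Dgke was lower in BALB in DP (−0.53 ± 0.099, adjusted p = 0.00488) and in whole thymocytes (−0.46 ± 0.10, adjusted p = 0.0193), and Dgkq in DP thymocytes, at 23.3 ± 5.99 against 41.1 ± 3.16 CPM (−0.86 ± 0.19, adjusted p = 0.0125). Dgkq was not called without the libraries that stood apart or with only the 4 DP libraries. In whole thymocytes Dgke fell by 0.55 on the log2 scale in B6 and by 0.48 in BALB, and Dgkg fell by 0.52 and 0.83.

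Other genes of the pathway were described by lists. Among 26 other intracellular inhibitors tested of 27, 3 rose and 5 fell in B6 whole thymocytes and 4 rose and 3 fell in BALB. These were 30.8% and 26.9% of the list, against 10.2% and 17.2% of all genes called. The median log2 fold changes were −0.07 and 0.00 against 0.00 and 0.00 over all genes. Tnfaip3, which encodes the ubiquitin-editing enzyme A20, changed by −0.90 ± 0.10 in B6 and −0.72 ± 0.10 in BALB (adjusted p = 0.000201 and 0.000537 in edgeR's test). Lax1, a membrane adaptor gene, rose by 0.98 ± 0.16 in BALB (adjusted p = 0.00148). Cish, which encodes a cytokine-induced SOCS protein, had no counts in the DP libraries and 3.69 ± 0.434 and 2.96 ± 0.764 CPM in B6 and BALB whole thymocytes, at least 9.30-fold and at least 8.14-fold higher with a floor of 3 counts over the group.

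Between strains, the same 26 inhibitors held 1 higher (Ptpn7) and 3 lower (Pag1, Ptprj and Cyld) in BALB DP, and 1 lower (Pag1) in BALB whole thymocytes, with medians of −0.16 and −0.05. The called shares of 15.4% and 3.85% lay near those of all genes, 13.0% and 4.59%. Ptprj, the gene of the receptor phosphatase CD148, was at 8.28 ± 0.181 against 15.3 ± 0.0504 CPM in DP thymocytes (−0.88 ± 0.21, adjusted p = 0.0195). Ptpn7, a phosphatase gene, was at 333 ± 64.7 against 240 ± 1.45 CPM (0.47 ± 0.13, adjusted p = 0.0376). Cyld, which encodes a deubiquitinase, was at 94.4 ± 8.92 against 128 ± 16.4 CPM (−0.43 ± 0.13, adjusted p = 0.0421 in edgeR's test). Neither Cyld nor Ptprj was called by the DESeq2 Wald test, Ptprj was not called without the libraries that stood apart, and neither these nor Ptpn7 was called with only the 4 DP libraries.

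Several inhibitory receptor genes rose in whole thymocytes. Of 12 tested of 14, 5 rose and none fell in each strain: Btla, Cd5, Havcr2, Lair1 and Pdcd1, with median log2 fold changes of 0.63 in B6 and 0.70 in BALB. That was 41.7% of the list in each strain, against 10.2% of all genes called in B6 and 17.2% in BALB. Pdcd1, which encodes PD-1, rose from 2.17 ± 0.483 to 11.9 ± 1.84 CPM in B6 and from 2.15 ± 0.807 to 14.9 ± 0.869 CPM in BALB (adjusted p = 0.00101 and 0.000167). Btla, a receptor that recruits SHP-1, was at 0.571 ± 0.808 and 19.7 ± 2.89 CPM in B6 DP and whole thymocytes, and in BALB it had no counts in DP libraries and was at least 48.1-fold higher in whole thymocytes. Lair1 had 3 counts in B6 DP and a ratio of 11.8 (95% counting interval 3.74 to 59.6), and Havcr2 was at least 5.76-fold higher in BALB whole thymocytes. Intervals and floors cover counting error only. Cd5 was higher in BALB, by 0.87 ± 0.12 in DP (adjusted p = 0.000669) and 0.63 ± 0.11 in whole thymocytes (adjusted p = 0.00605), while 4632428N05Rik (Vsir) changed by −0.85 ± 0.18 in BALB DP (adjusted p = 0.0114 in edgeR's test). Neither Havcr2 nor Lair1 in BALB was called without the libraries that stood apart, and the DESeq2 Wald test did not call Lair1 in BALB. With only the 4 libraries compared, 4632428N05Rik was not called, nor was Havcr2 in either strain.

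The proximal signalling machinery on which the 10 genes act was also listed. Of 23 tested genes, Cd3g and Cd3e were called between strains in DP thymocytes, 8.70% of the list against 13.0% of all genes. They were higher in BALB by 1.01 ± 0.19 and 0.39 ± 0.11 (adjusted p = 0.00549 and 0.0355 in edgeR's test). Cd3g was at 1037 ± 389 CPM in BALB DP against 514 ± 24.2 in B6 DP. In whole thymocytes none of the 23 was called between strains by edgeR, DESeq2 or limma-voom, but some were called without the libraries that stood apart. In edgeR's test 5 of the 23 had an unadjusted p under 0.05, as had 1660 of all 11409 genes tested. Fyn, the second Src-family kinase of T cells, rose in whole thymocytes by 0.43 ± 0.11 in B6 and 0.99 ± 0.11 in BALB (adjusted p = 0.0338 and 0.000166). Themis, a gene needed for positive selection, changed by −0.57 ± 0.10 and −0.56 ± 0.10 (adjusted p = 0.00415 and 0.00317), and Prkcq, the gene of protein kinase C theta, rose by 0.32 ± 0.098 in BALB (adjusted p = 0.0406 in edgeR's test). The DESeq2 Wald test called neither Prkcq in BALB, Fyn in B6 nor Cd3e between strains in DP thymocytes, and with only the 4 libraries compared Prkcq, Cd3e and Cd3g were not called. Between strains, the 8 tested paralogs of 11 held 3 lower in BALB DP and 1 lower in BALB whole thymocytes, 37.5% and 12.5% against 13.0% and 4.59% of all genes. Between whole and DP thymocytes, 2 were lower in each strain, with 0 higher in B6 and 1 higher in BALB. These were 25% and 37.5%, against 10.2% and 17.2% of all genes. The 1 higher was Dgkh, at 0.845 ± 0.452 CPM in BALB DP and 7.75 ± 1.05 CPM in BALB whole thymocytes. The lower call of Dgkh in BALB DP was lost in the DESeq2 Wald test, in limma-voom, without the libraries that stood apart and with only the 4 DP libraries.

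**Figure D5:**
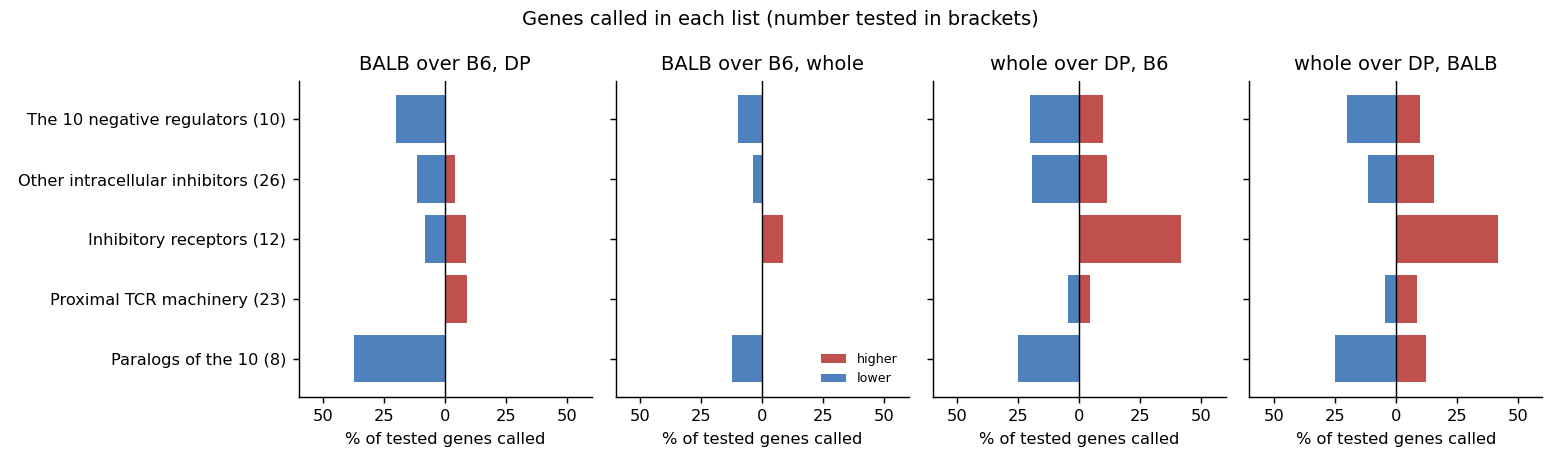
Share of tested genes called higher (right of 0) and lower (left of 0) in each of 5 gene lists, as percent of the genes tested, in the 4 comparisons; the number tested stands in brackets. Inhibitory receptors show calls in the higher direction alone between whole and DP thymocytes, 5 of 12 in each strain, whereas the 10 negative regulators hold 1 higher and 2 lower. Of all genes, 10.2% were called between whole and DP thymocytes in B6 and 17.2% in BALB.

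Comparisons that share no libraries were set side by side. The strain change had the same sign in DP and whole thymocytes for 6 of the 10 genes and for 63.8% of all tested genes, and Ptprc, Csk, Dgka and Dgkz differed in sign. The population change had the same sign in B6 and BALB for 6 of the 10 and for 67.3% of all tested genes; Ptprc, Ptpn22, Dgka and Dgkz were negative in B6 and positive in BALB, none of them past the threshold. Called in both strains in the same direction were 3 of the 10, Cblb, Cbl and Sla, against 788 of all 11409 tested genes.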

How the data were processed

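Total RNA of 8 thymocyte libraries was prepared with an unstranded TruSeq kit, per the labels. Per the submitters' processing notes, HISAT2 2.2.0, HTSeq, DESeq2 1.42.1 and the build mm10 were used; neither annotation nor strand setting is stated. Raw counts per gene symbol were deposited. HTSeq's lines for reads outside genes (43.3% to 48.9% of reads in no gene) were left out. mm10 is the B6 genome, and its effect on BALB counts was not tested.

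In R 4.3.3 with edgeR 4.0.16, filterByExpr left 11409 genes, scaled by trimmed mean of M values, and quasi-likelihood tests used 1 coefficient per group (common biological coefficient of variation 0.114). CPM use these scaled library sizes. On simulated counts of the DP strain comparison, 76 of 100 genes changed 2-fold and 98 of 100 changed 4-fold were recovered, with 12 unchanged genes called. All simulated libraries had the same spread, whereas the real BALB DP pair differed most. No change under 2-fold was simulated, so recovery of smaller changes is not known. Alternatives used DESeq2 1.42.0 and limma 3.58.1. Positions and exon lengths came from GENCODE M21. Deviations of same-numbered libraries correlated at −0.06 to 0.107, and the numbers were not used as pairs.

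The 10 genes, lists and comparisons were chosen with earlier results of these data known. All 10 are named, with up to 4 called genes of smallest p per list and simple comparison, and 3 nearest profiles for the 2 genes of smallest p. The rule also picks 1 further gene, which is not reported here; the others are. Replicates differed beyond sampling noise in every group.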

Additional observations from a re-analysis of the deposited data

How the results depend on the processing

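Of 1090 alternative values for the 70 gene-by-comparison results, 1004 kept direction and side of the threshold or stayed uncalled, 40 lost the call, 46 gained it, and no called value changed sign. Upper-quartile scaling gave 5 called genes in place of 3 for whole over DP in BALB, and so did omitting the filter; without the filter the interaction had 1 (Dgkz). The DESeq2 Wald test gave 1 in place of 2 for the strain in DP. With only the 4 libraries compared, counts were 1 for the strain in DP, 2 in whole thymocytes, 7 for the population in B6 and 1 in BALB. Without both libraries that stood apart they were 4, 3 and 7 for the first 3 of these comparisons and 4 for the averaged strain. Leaving out 1 library, where the lone sample of a group is assumed to vary like the others, gave 1 to 5 for the strain in DP, 0 to 3 in whole thymocytes, 1 to 4 for the population in B6, 1 to 7 in BALB, 0 to 4 for the interaction, 1 to 6 for the averaged strain and 3 to 6 for the averaged population. The highest counts for all 7 came without BALB DP replicate 2, with omission of replicate 1 giving as many for the strain in whole thymocytes and the population in B6. The replicate block left all counts of called genes among the 10 as they were (2, 1, 3, 3, 0, 2 and 5). Of the other genes named with a call in a list, Cyld and Dgkh for the strain in DP were not called under the block. The same held for Havcr2 for the population in B6 and Prkcq for the population in BALB. With only the 4 libraries compared, Cish and Dgke for the population in BALB were also not among the called genes. The cause of these shifts was not tested.

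Over all genes, leaving out 1 library gave 509 to 3493 calls for the strain in DP (1482 with all), 214 to 966 in whole thymocytes (524), 378 to 2201 for the population in B6 (1159), 1040 to 3976 in BALB (1961), 0 to 1311 for the interaction (14), 834 to 3435 for the averaged strain (1587) and 1672 to 4387 for the averaged population (2722). With only the 4 libraries compared these were 562, 1050, 2568 and 1101 for the simple comparisons. Without the filter the counts for whole thymocytes and the interaction were 839 and 364; the DESeq2 Wald test gave 748 for the population in B6, and DESeq2 and limma-voom 24 and 8 for the interaction. Without both libraries that stood apart, the strain in whole thymocytes had 1046, the population in B6 2809 and the interaction 139.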
